A study of Mus musculus with 12 samples.

Results

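Genes of the fat cell were followed library by library in mouse teratomas, tumours of mixed tissue that embryonic stem (ES) cells form under the skin. They are 10 genes, Pparg, Plin1, Cidec, Lipe, Fabp4, Adipoq, Cfd, Lep, Retn and Ucp1, taken by symbol from the 38986 genes listed for each library. All 10 were listed, and 6 of them (Pparg, Cidec, Lipe, Fabp4, Adipoq and Cfd) passed the filter on low counts that left 18405 genes to test. The other 4 (Plin1, Lep, Retn and Ucp1) had too few counts in too many libraries and are described without a test, except where a fit with no filter is named.

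The teratomas came from R1 mouse ES cells carrying the vector pEZ-LV235, in which a CAG promoter drives the insert. The vector was empty (ET, the control) or held Dnmt3L, a cofactor of the de novo DNA methyltransferases, as wild type (WT) or with an acetylated lysine replaced by arginine (K238R and K412R). Cells of each line, grown in serum and LIF, were placed under the skin of immunodeficient hosts, male NOD-Prkdc EM1 mice 8 weeks of age, and teratomas for RNA were dissected at day 21. Each of the 4 groups has 3 libraries, 1 from each teratoma, and all carry the vector and its promoter. Nothing in the labels says whether teratomas of a group grew in separate mice, so a p-value here measures the spread between these 3 samples only. The hosts have fat of their own under the skin, and host and graft are both mouse, so graft and host RNA cannot be told apart in these counts.

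The 12 libraries held 16957677 to 18546100 counts, a range of depth that is narrow beside the differences described here. A count of 0 in 1 library allows up to 3 counts, or 0.162 to 0.177 CPM (counts per 1000000 counts of the library), and this limit covers counting error only. Dnmt3l, the gene on the construct, checks the labels. It had 39, 11 and 137 counts for ET and 2941, 3643 and 3581 for WT. K412R had 699, 677 and 463, and the libraries labelled K238R had 35, 20 and 10. The libraries labelled K238R thus had as little Dnmt3l transcript as ET, unlike what their label implies. The cause was not tested, and these libraries are named by their label only.

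White fat cells store triglyceride in 1 large droplet coated by perilipin and release it by lipolysis when hormones call for fuel, and they secrete hormones such as adiponectin and leptin. Their differentiation is driven by the nuclear receptor PPARγ together with C/EBP factors, which switch on most genes of the mature cell. Brown fat cells share this programme and burn fuel for heat through the mitochondrial uncoupling protein UCP1.

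The promoters of 4 of the genes are shown. Adipoq, Plin1 and Ucp1 carry the pattern described next, as do Cidec, Cfd and Retn, whose promoters are not shown. Lep had too few counts to show it. Each runs from 250 bases before the start site to 50 after it, 5′ to 3′ on the strand of the gene, and comes from RefSeq's annotation of mouse build GRCm38.p6 (the labels name GRCm39 for the counts, and no coordinate of that build is used). Adiponectin's promoter lies at chr16:23146286-23146585 on the plus strand, that of Plin1 at chr7:79732727-79733026 on the minus strand, that of Lep at chr6:29059971-29060270 on the plus strand and that of Ucp1 at chr8:83290098-83290397 on the plus strand. Capitals mark letters that match a motif searched for on both strands.
Adipoq: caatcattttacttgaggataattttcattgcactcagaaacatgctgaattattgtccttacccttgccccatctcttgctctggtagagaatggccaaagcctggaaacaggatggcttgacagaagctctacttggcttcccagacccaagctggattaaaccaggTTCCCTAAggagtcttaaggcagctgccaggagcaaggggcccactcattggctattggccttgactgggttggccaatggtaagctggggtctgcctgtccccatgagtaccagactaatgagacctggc
Plin1: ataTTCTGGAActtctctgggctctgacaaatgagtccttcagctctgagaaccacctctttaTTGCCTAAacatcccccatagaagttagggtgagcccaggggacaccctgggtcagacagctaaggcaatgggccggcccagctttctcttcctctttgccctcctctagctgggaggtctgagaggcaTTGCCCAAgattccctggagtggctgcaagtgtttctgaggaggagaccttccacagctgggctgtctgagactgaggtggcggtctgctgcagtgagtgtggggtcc
Lep: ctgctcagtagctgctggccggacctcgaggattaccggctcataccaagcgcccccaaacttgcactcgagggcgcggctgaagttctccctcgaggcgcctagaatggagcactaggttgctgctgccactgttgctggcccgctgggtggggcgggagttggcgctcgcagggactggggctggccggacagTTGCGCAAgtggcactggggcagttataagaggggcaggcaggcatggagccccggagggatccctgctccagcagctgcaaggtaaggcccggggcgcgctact
Ucp1: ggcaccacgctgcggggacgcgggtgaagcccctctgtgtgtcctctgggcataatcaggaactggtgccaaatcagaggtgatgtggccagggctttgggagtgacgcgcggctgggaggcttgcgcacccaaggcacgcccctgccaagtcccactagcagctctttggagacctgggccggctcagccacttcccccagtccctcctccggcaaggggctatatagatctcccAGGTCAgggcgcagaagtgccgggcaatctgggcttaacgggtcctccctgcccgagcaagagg
The capitals in Adipoq and Plin1 match a loose C/EBP pattern, TTNCNNAA, which 40.7% of all 32851 mouse promoters of this length hold on 1 strand or the other. Those in Lep match the C/EBP palindrome TTGCGCAA, held by 0.183% of all promoters and a case of the loose pattern, and those in Ucp1 match AGGTCA, the core sequence of nuclear receptor sites, held by 16.3%. RefSeq's table gives 13 promoters for 9 of the 10 genes, all except Fabp4. Of these 13, 6 held the loose C/EBP pattern, 3 held AGGTCA and 1 held the palindrome. Those of Lipe, Cfd and Retn held none of these. The DR1 element, AGGTCA repeated in the same direction with 1 base between, is in 0.0396% of all promoters. At so low a share, its absence from all 13 tells nothing about these genes. A match of letters is a description of the window and shows no binding.

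The signal of the fat cell genes was low in these teratomas, and for Plin1, Ucp1, Adipoq, Retn, Cidec and Cfd most of it lay in 1 library. WT replicate 2, singled out after its values were seen, had the highest CPM of the 12 libraries for 9 of the 10 genes, all except Lep, while 8.83% of the 18405 tested genes had their highest value there. The 10 genes together had 1337 counts in WT replicate 2, 665 in WT replicate 1, and 220 to 415 in the other 10 libraries. Of the CPM summed over the 12 libraries, WT replicate 2 held 67.9% for Plin1, 67.7% for Ucp1, 66.6% for Adipoq, 61.7% for Retn, 60.6% for Cidec and 52.3% for Cfd. It held 29.1% for Fabp4, 17.2% for Pparg, 11.4% for Lipe and 10.9% for Lep, against 8.33% for equal libraries and a median of 8.04% over all tested genes. The shares of Lipe and Lep were above those of 88.2% and 85.4% of tested genes, and that of Lep rests on 1 of its 9 counts. Fewer fat cells and less RNA in each fat cell cannot be told apart in RNA of whole tissue.

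**Figure D1:**
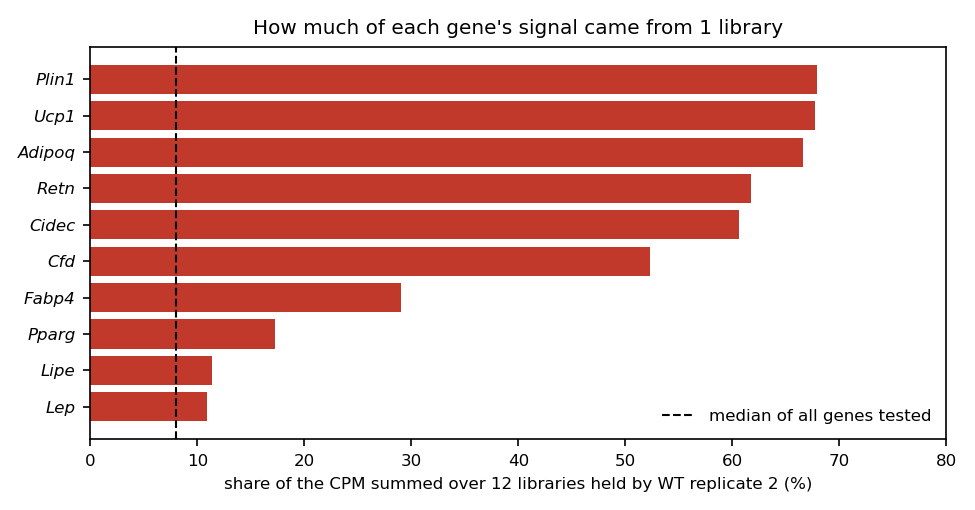
Share (%) of each gene's CPM, summed over 12 libraries, that was held by WT replicate 2 (bars), with the median of all 18405 tested genes at 8.04% as a dashed line. Cfd (52.3%), Cidec, Retn, Adipoq, Ucp1 and Plin1 (67.9%) stood highest, while Lipe (11.4%) and Lep (10.9%, from 1 count) stood lowest.

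Pparg, the gene of the nuclear receptor that drives fat cell formation, was low in every library and spread over all of them. Its counts by replicate were 11, 25 and 19 for ET, 32, 46 and 17 for WT, 37, 11 and 22 for K238R as labelled and 19, 14 and 13 for K412R. WT replicate 2 was the highest, 1.29 times the next library, K238R replicate 1, and the ranges of all pairs of groups overlapped. In CPM the means were 1.05 ± 0.424 (SD, n = 3) in ET, 1.78 ± 0.798 in WT, 1.27 ± 0.695 in K238R and 0.86 ± 0.175 in K412R.

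Plin1 encodes perilipin 1, which coats the droplet and guards it from lipases. Its counts by replicate were 5, 2 and 1 for ET, 9, 62 and 4 for WT, 1, 4 and 0 for K238R as labelled and 1, 0 and 2 for K412R. WT replicate 2 stood 6.83 times above the next library, and without it no library had more than 9 counts. All 3 WT libraries lay above all 3 libraries labelled K238R and all 3 of K412R, though between WT replicate 3 and K238R replicate 2, each with 4 counts, the order rests on library totals alone (0.228 and 0.222 CPM).

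Cidec encodes a protein that fuses small droplets into a large one. It had 0, 4 and 0 counts for ET, 18, 76 and 4 for WT, 1, 18 and 2 for K238R as labelled and 1, 1 and 0 for K412R. Here WT replicate 1 and K238R replicate 2 were at nearly the same level, below WT replicate 2 at 4.24 CPM. The WT libraries lay above the K412R libraries without overlap and overlapped both other groups.

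Lipe, the gene of hormone-sensitive lipase, which many tissues beside fat express, was nearly even across the 12 libraries. It had 188, 190 and 153 counts for ET, 170, 249 and 154 for WT, 148, 186 and 171 for K238R as labelled and 193, 189 and 182 for K412R. Its highest library, WT replicate 2, stood 1.24 times above the next, ET replicate 2, and all groups overlapped.

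Fabp4, a fatty acid carrier of fat cells that endothelial cells and macrophages also make, had more counts than the secreted proteins in every library. Its counts by replicate were 70, 116 and 59 for ET, 341, 536 and 118 for WT, 83, 140 and 21 for K238R as labelled and 187, 50 and 111 for K412R. WT replicates 2 and 1 were the highest, and WT replicate 3, at 6.73 CPM, lay within the ranges of all 3 other groups. How the counting shared reads between Fabp4 and its close relatives was not tested.

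Adipoq encodes adiponectin, the most specific hormone of the fat cell. It had 8, 2 and 0 counts for ET, 17, 140 and 6 for WT, 6, 25 and 0 for K238R as labelled and 4, 0 and 2 for K412R. WT replicate 2 stood at 7.81 CPM, 5.62 times the next library, K238R replicate 2. A library at 0 was found in each group except WT, and the 3 WT libraries lay above the 3 of K412R but not above those of the other groups.

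Cfd encodes adipsin, a serine protease of the complement system that fat cells secrete. Its counts by replicate were 3, 15 and 0 for ET, 57, 121 and 2 for WT, 1, 23 and 0 for K238R as labelled and 6, 2 and 0 for K412R. The WT group thus held the 2 highest libraries and, in replicate 3, 1 of the low ones, and it overlapped every other group.

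Retn, the gene of resistin, another secreted protein of mouse fat, had 2, 2 and 0 counts for ET, 5, 26 and 0 for WT, 1, 4 and 1 for K238R as labelled and 0, 0 and 1 for K412R. Lep, the gene of leptin, the hormone that reports the size of fat stores to the brain, was nearly absent. It had 0, 3 and 0 counts for ET, 3, 1 and 0 for WT, 0, 1 and 0 for K238R as labelled and 0, 1 and 0 for K412R, 9 in all. No library had more Lep than the limit that a count of 0 allows, so no difference in Lep was detectable at this depth.

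Ucp1, the uncoupling protein of brown and beige fat, had 7, 2 and 1 counts for ET, 13, 80 and 0 for WT, 4, 3 and 3 for K238R as labelled and 2, 0 and 3 for K412R. The highest library was again WT replicate 2, at 4.46 CPM and 6.10 times the next, while WT replicate 3 had none.

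**Figure D2:**
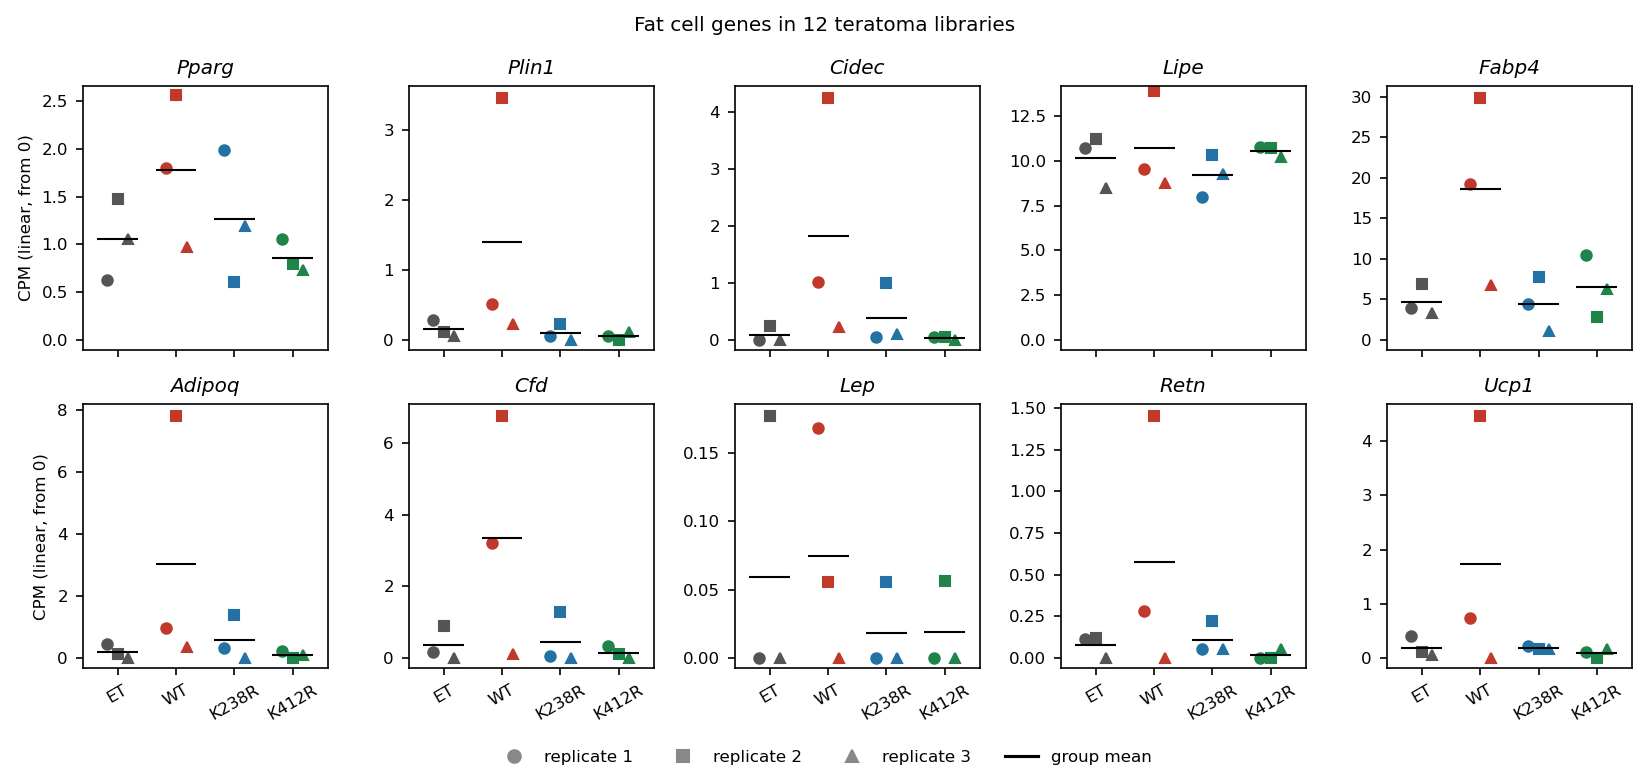
CPM of the 10 genes (1 panel each, linear axis that differs between panels) in the 12 libraries by group, with 1 symbol for each replicate number and a line at the group mean. In 9 panels the highest point is WT replicate 2 (square), from 1.45 CPM for Retn to 29.9 CPM for Fabp4.

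Compared per kilobase of exon (the union of GENCODE M21 basic exons), the mean level over the 12 libraries was highest for Fabp4 at 9.56 CPM per kb, followed by Lipe at 1.85, Cfd at 1.17, Adipoq at 0.756, Pparg at 0.521, Ucp1 at 0.336, Cidec at 0.332, Retn at 0.124, Plin1 at 0.110 and Lep at 0.0131. The ranges over the libraries overlapped between every gene and the next in this order. Fabp4 was above Lipe in 11 of the 12 libraries, whereas Cfd was above Adipoq in 6 and Adipoq above Pparg in 3. By the median over libraries Pparg, at 0.445 CPM per kb, came before Adipoq at 0.211 and Cfd at 0.154, since the means of Adipoq and Cfd rest on few libraries. In WT replicate 2 alone the levels were 33.4 CPM per kb for Fabp4, 7.32 for Cfd, 6.04 for Adipoq, 2.73 for Ucp1, 2.53 for Lipe, 2.41 for Cidec, 1.08 for Pparg, 0.918 for Retn, 0.892 for Plin1 and 0.0171 for Lep.

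Within WT replicate 2 the genes stood in proportions that can be set beside those of the next libraries, with exact Clopper-Pearson 95% intervals that cover counting error only. Ucp1 made up 36.4% of the Ucp1 and Adipoq counts in WT replicate 2 (30.003% to 43.1%), 43.3% in WT replicate 1 (25.5% to 62.6%) and 10.7% in K238R replicate 2 (2.27% to 28.2%). Thus the intervals of the WT libraries overlapped each other, and that of K238R replicate 2 lay below the interval of WT replicate 2. Cfd made up 77.0% of the Cfd and Adipoq counts in WT replicate 1 (65.8% to 86.0%), 46.4% in WT replicate 2 (40.2% to 52.6%) and 47.9% in K238R replicate 2 (33.3% to 62.8%). Lep was 0.709% of the Lep and Adipoq counts in WT replicate 2 (0.0180% to 3.89%).

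The overexpression of WT Dnmt3L was compared with the empty vector first. Adipoq, Cidec, Cfd and Fabp4 had higher means in WT, with fitted log2 fold changes of 3.97 (standard error 1.40), 4.48 (1.37), 3.27 (1.41) and 2.01 (0.67). None of them passed the adjusted threshold of 0.05 in the quasi-likelihood test of edgeR, adjusted by Benjamini and Hochberg over all genes (adjusted p = 0.120, 0.111, 0.154 and 0.114), and Pparg (0.78, standard error 0.48, adjusted p = 0.282) and Lipe (0.11, standard error 0.19, adjusted p = 0.704) did not either. So 0 of the 6 tested genes were called, in a comparison that called 0.0489% of all genes. DESeq2 called 0 of the 5 genes to which it gave an adjusted p (not Cidec), while it called 1922 of all 18405. An unadjusted p under 0.05 in edgeR's quasi-likelihood test was reached by 4 of the 6 and by 29.1% of all genes. No gene of the 10 had all WT libraries above all ET libraries (9.41% of all tested genes did), and none had all below (11.4% did).

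The study's text names differential genes by a 2-fold change and a p-value threshold without saying whether that p is adjusted. The study's methods name DESeq2 for its basic analysis of differential genes. Here the criterion was applied to another test, with an unadjusted p under 0.05 from edgeR's quasi-likelihood test. In this form it was met by Adipoq, Cidec, Cfd and Fabp4 and by 6.08% of all genes. Adipoq and Cidec reached 10 counts in 3 libraries only, WT replicates 1 and 2 and K238R replicate 2, and Cfd in these and ET replicate 2. They passed the filter through libraries where they were high, so this number is no independent support of a difference, and filtered on the WT and ET libraries alone 4 of the 10 genes were kept. Without WT replicate 2, none of the 6 met it, and the log2 fold changes were 1.75 for Adipoq (adjusted p = 0.453), 2.92 for Cidec (0.29), 2.24 for Cfd (0.405) and 1.47 for Fabp4 (0.291), all by edgeR's quasi-likelihood test. Without ET replicate 2, where ET had its 4 counts of Cidec, Cidec (8.06, adjusted p = 0.0276) and Fabp4 (adjusted p = 0.0381) passed the adjusted threshold by the same test, with 5820 of 18775 genes called in all. With no library left out 9 of 18405 genes were called, so this omission changed the fit of all genes. The study's text mentions 1 outlier among its control teratomas without naming it.

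The libraries labelled K238R, which had as little Dnmt3l transcript as ET, were next set against WT. All 6 tested genes had lower means than in WT, and 0 of 6 passed the adjusted threshold, where 0.174% of all genes did. The log2 fold changes were -2.43 for Adipoq (standard error 1.22, adjusted p = 0.315), -2.25 for Cidec (1.09, adjusted p = 0.303), -2.93 for Cfd (1.36, adjusted p = 0.291) and -2.08 for Fabp4 (0.67, adjusted p = 0.167) by edgeR's quasi-likelihood test. Those of Pparg and Lipe were -0.53 and -0.27. Fabp4 alone of the 6 had an unadjusted p under 0.05, as did 17.6% of all genes, and it alone met the 2-fold criterion, met by 5.28% of all genes. DESeq2 called 0 of the 6 and 786 of all genes at the adjusted threshold. Of the 10 genes, Plin1 had all libraries labelled K238R below all WT libraries, with 4 counts each in WT replicate 3 and K238R replicate 2. It is not among the tested genes, of which 11.3% lay below. No gene of the 10 lay above (12.7% of tested genes did). Without WT replicate 2 the difference in Adipoq was -0.21 (adjusted p = 0.955) and that in Cidec -0.69 (adjusted p = 0.807) by edgeR's quasi-likelihood test. Fabp4 then differed by -1.55 (adjusted p = 0.421) and Cfd by -1.89 (adjusted p = 0.619).

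K412R, with Dnmt3l transcript below WT and above ET, had the lowest group means of Adipoq, Cidec, Cfd, Plin1, Pparg, Ucp1 and Retn. Against WT the fitted log2 fold changes were -4.69 for Adipoq (standard error 1.5, adjusted p = 0.107), -5.38 for Cidec (1.51, adjusted p = 0.0804), -4.43 for Cfd (1.57, adjusted p = 0.133) and -1.53 for Fabp4 (0.65, adjusted p = 0.193) in edgeR's quasi-likelihood test. Those of Pparg and Lipe were -1.05 (adjusted p = 0.222) and -0.04 (adjusted p = 0.906). None of the 6 passed, where 2.02% of all genes did. An unadjusted p under 0.05 was reached by 4 of the 6 and by 22.8% of all genes, and DESeq2 called 0 of the 5 to which it gave an adjusted p and 1675 of all genes. Filtered on the WT and K412R libraries alone, 3 of the 10 genes were kept. Adipoq, Cidec, Cfd and Fabp4 met the 2-fold criterion, met by 5.05% of all genes, and 1 of the 6 did without WT replicate 2. Adipoq, Cidec and Plin1 had all K412R libraries below all WT libraries, 3 of 10. This held for 16.6% of tested genes, which do not include Plin1, and none of the 10 had all above (14.4% of tested genes did). The separations rest on few counts, 6, 4 and 4 in WT replicate 3 against at most 4, 1 and 2 in K412R. Without WT replicate 2, Adipoq differed by -2.47 (adjusted p = 0.422) and Cidec by -3.82 (adjusted p = 0.270).

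With no filter on low counts the 4 remaining genes entered the fit, over 31068 genes. Plin1 was then lower in K412R than in WT (by -4.51 on the log2 scale, standard error 1.11, adjusted p = 0.0441 by edgeR's quasi-likelihood test), and so was Cidec (-5.38, adjusted p = 0.0437), in a fit that called 1.98% of genes. In the same fit Plin1 did not pass in WT against ET (3.17, adjusted p = 0.0934), where 0.624% of genes were called, or in K238R against WT (-3.87, adjusted p = 0.0865), where 0.875% were. Ucp1 differed by 3.17 in WT against ET (adjusted p = 0.112) and by -4.14 in K412R against WT (adjusted p = 0.0724), and Retn by 2.84 and -4.53 (adjusted p = 0.189 and 0.108). For Lep the differences were 0.35 and -1.67, with standard errors of 1.47 and 1.67. The 2-fold criterion without a filter was met by 7 of the 10 genes in WT against ET (5.61% of all genes), by 7 in K238R against WT (4.97%) and by 8 in K412R against WT (4.51%). Most of the CPM of Plin1, Ucp1, Adipoq, Retn, Cidec and Cfd lay in WT replicate 2. These numbers are therefore no independent support of a difference, and this fit was not run without that library. The criterion was met by none in K238R against ET (1.48%) or K412R against ET (2.23%) and by 1 in K412R against K238R (2.58%). In those last comparisons none of the 10 passed the adjusted threshold, with 0, 0.00966% and 0.0998% of all genes called.

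Neither the libraries labelled K238R nor K412R had any of the 6 genes past the threshold against ET, in comparisons that called 0 of all 18405 genes in edgeR's quasi-likelihood test. At an unadjusted p under 0.05 these comparisons gave 1027 and 1446 genes, none of the 6 among them, and DESeq2 called none of the genes to which it gave an adjusted p. None of the 6 met the 2-fold criterion (0.951% and 1.59% of all genes did). No gene of the 10 had groups that did not overlap, where 4.93% of tested genes lay above ET and 4.24% below it in K238R, and 5.01% and 5.74% in K412R. The standard errors of the log2 differences from ET were 1.52 and 1.90 for Adipoq and 1.54 and 2.20 for Cidec, so a change of several fold in either direction was not detectable. K412R against K238R likewise gave 0 of 6, with 0.0217% of all genes called, none past the 2-fold criterion (2.52% of all genes) and none of the 10 without overlap (8.75% above, 10.2% below). The lowest adjusted p of the 6 there, by edgeR's quasi-likelihood test, was that of Cidec (log2 fold change -3.13, adjusted p = 0.529). A test of any difference among the 4 groups gave 0 of 6, with 0.168% of all genes called and a lowest adjusted p of 0.136 for Cidec. These comparisons share libraries, so their values are given side by side and are not independent of each other.

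**Figure D3:**
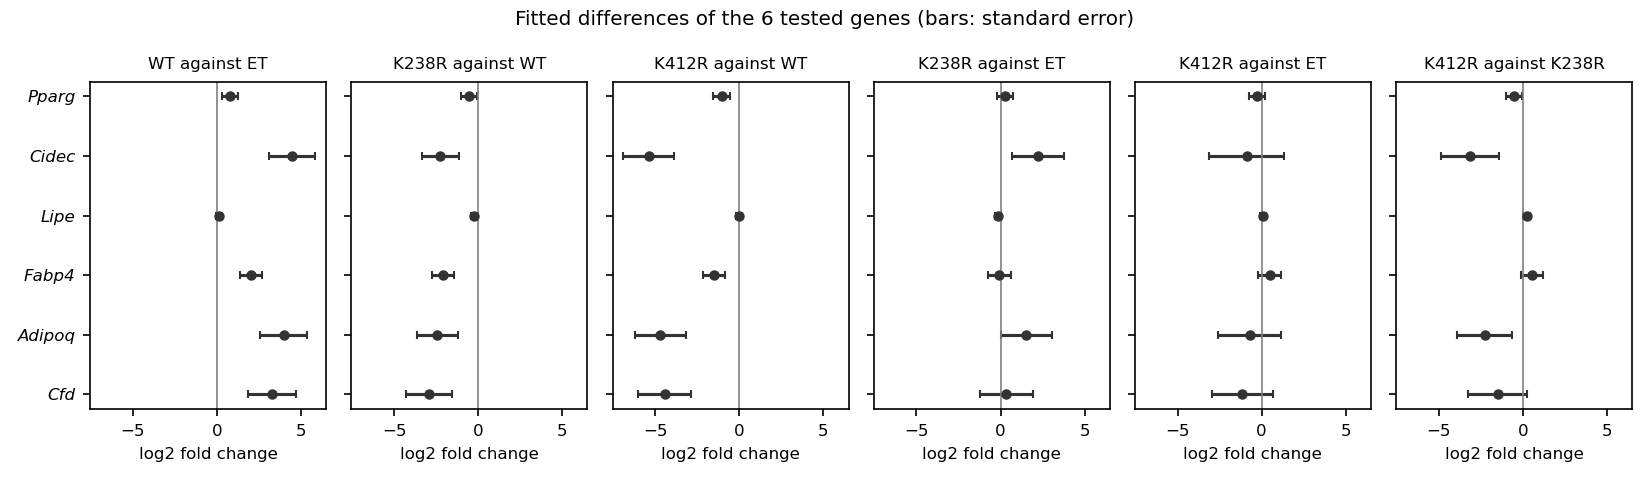
Fitted log2 fold changes (points) with standard errors (bars) of the 6 tested genes in the 6 comparisons of groups, on 1 common axis. Adipoq, Cidec and Cfd have wide bars throughout, up to 2.20 for Cidec in K412R against ET, and those of Lipe are 0.19.

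The spread between libraries of a group set the precision of these comparisons. The biological coefficient of variation, edgeR's estimate of the relative spread between replicates, was 1.33 for Cfd, 1.16 for Adipoq and 1.02 for Cidec, above that of 99.7%, 99.6% and 99.5% of tested genes. It was 0.551 for Fabp4 (above 96.9%), 0.374 for Pparg (above 90.2%) and 0.168 for Lipe, near the median of all genes at 0.166. Differences between the 4 group means made up 57.0% of the variance of log2 CPM for Cidec, 49.7% for Fabp4, 44.8% for Adipoq, 36.7% for Cfd, 32.5% for Pparg and 21.4% for Lipe, against a median of 41.6% over all tested genes.

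The other genes of fat metabolism were read from lists that hold none of the 10 genes except for Ucp1 in the brown fat list. Of 9 genes of lipid droplets and lipolysis (such as Plin2, Abhd5, Mgll and Pnpla2), 15 tested of 17 in triglyceride synthesis (such as Fasn, Acly, Acaca and Gpam), 10 tested of 11 in lipid and glucose uptake (such as Lrp1, Fabp5, Cav1 and Slc27a1) and 13 adipogenic transcription factors (such as Zfp423, Klf5, Rxra and Ebf1), 0 passed the adjusted threshold in any of the 6 comparisons, which called 0 to 2.02% of all genes. In WT against ET the median log2 fold changes of these lists were 0.41, 0.08, 0.31 and 0.35, with the median of all genes at -0.01. Lists of other cell types had medians there of 2.20 for striated muscle, 0.88 for keratinocytes and 0.51 for endothelial cells. Those of fibroblasts and preadipocytes, macrophages and sebocytes were 0.37, 0.03 and -0.11, and that of brown fat was 0.71. Among 13 tested genes of adipokine and hormone receptors, 2 were higher in K412R than in WT, a comparison that called 2.02% of all genes: Hcar1, a lactate receptor (log2 fold change 1.77, adjusted p = 0.0214), and Irs1, an adaptor of insulin signalling (0.68, adjusted p = 0.0414). Among 9 tested genes of other secreted proteins, Rbp4, a carrier of retinol, was higher in K412R than in WT (1.33, adjusted p = 0.0267, edgeR's quasi-likelihood test for all 3). These 3 were therefore called in the direction opposite to the fitted differences of Adipoq and Cidec. Rbp4 was lowest in WT replicate 2 (37 counts), where 9 of the 10 genes, all except Lep, had their highest value. The study counts Rbp4 among neural markers and reports, by quantitative PCR of teratomas, that it was lower with WT Dnmt3L and recovered in the mutants.

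WT replicate 2 also held the highest value of 5 of the 9 genes of lipid droplets and lipolysis, 9 of the 17 of triglyceride synthesis, 6 of the 11 of uptake and 5 of the 13 transcription factors, where it held that of 8.83% of all tested genes. It held the highest value of 3 of the 14 receptors and 1 of the 12 other secreted proteins. Outside fat it held that of 4 of the 8 endothelial genes and 3 of the 8 of fibroblasts and preadipocytes. It also held that of 2 of the 6 of striated muscle and 1 of the 6 of keratinocytes, but 0 of the 8 macrophage and 0 of the 7 sebocyte genes. Picked after their values were seen, the largest excesses in the fat lists other than brown fat were those of Pck1, Plin4 and Gpd1. Pck1, an enzyme of glycerol supply in fat, had 70 counts there and a median of 3 over the 12 libraries. Plin4 had 114 counts, 5.36 times the median CPM of the other libraries, and Gpd1 had 496, 5.17 times. Aqp7, the glycerol channel of fat cells, had 13 counts there and a median of 0 over the libraries. Of the striated muscle genes, Myh3 stood at 21.8 times the median of the other libraries, Acta1 at 6.74, Ckm at 6.21 and Tnnt3 at 4.98. Myh1 and Myh4 stood lower there, at 0.523 and 0.326 times. Among the transcription factors Cebpa stood at 1.54 times the median of the other libraries. Of the 9 genes of brown fat 5 were highest there, Ucp1, Cox8b (77 counts, 5.2 times), Otop1 (6 counts, 3.01 times), Cidea (41 counts, 2.87 times) and Prdm16 (1.85 times). Cox7a1 and Ebf2 stood at 1.11 and 1.06 times the median of the other libraries and Dio2 at 1.73 times, and Elovl3 had 0 counts there.

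Marker lists of the other cell types that the dissected tissue could hold moved with the fat cell genes only in part. The summed level of 6 genes of striated muscle was 1767 CPM in WT replicate 2 and 2360 in WT replicate 3, where fat cell genes were low, 234 in WT replicate 1, and 16.4 to 1004 in the other groups. The 8 endothelial genes reached 277 CPM in WT replicate 2 and 283 in ET replicate 2, over a range from 154, and the 8 macrophage genes 261 CPM in WT replicate 2, where 7 libraries were higher, up to 384 in WT replicate 1. The 8 genes of fibroblasts and preadipocytes had their highest sum in WT replicate 2, at 697 CPM against 473 to 642 in the others. Sebocytes, lipid-making cells of the skin, had a sum of 70.7 CPM in WT replicate 2 within a range of 60.1 to 78.6. Of their list, Awat1 had 0 counts in every library, whereas Awat2 had 4 to 19, Far2 76 to 357 and Mc5r 72 to 171. The 6 keratinocyte genes summed to 73.5 CPM in WT replicate 2 within 22.5 to 112. None of these lists, nor the list of brown fat with 6 tested genes, had a gene past the adjusted threshold in any of the 6 comparisons, and their part in the levels of the fat cell genes was not tested.

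**Figure D4:**
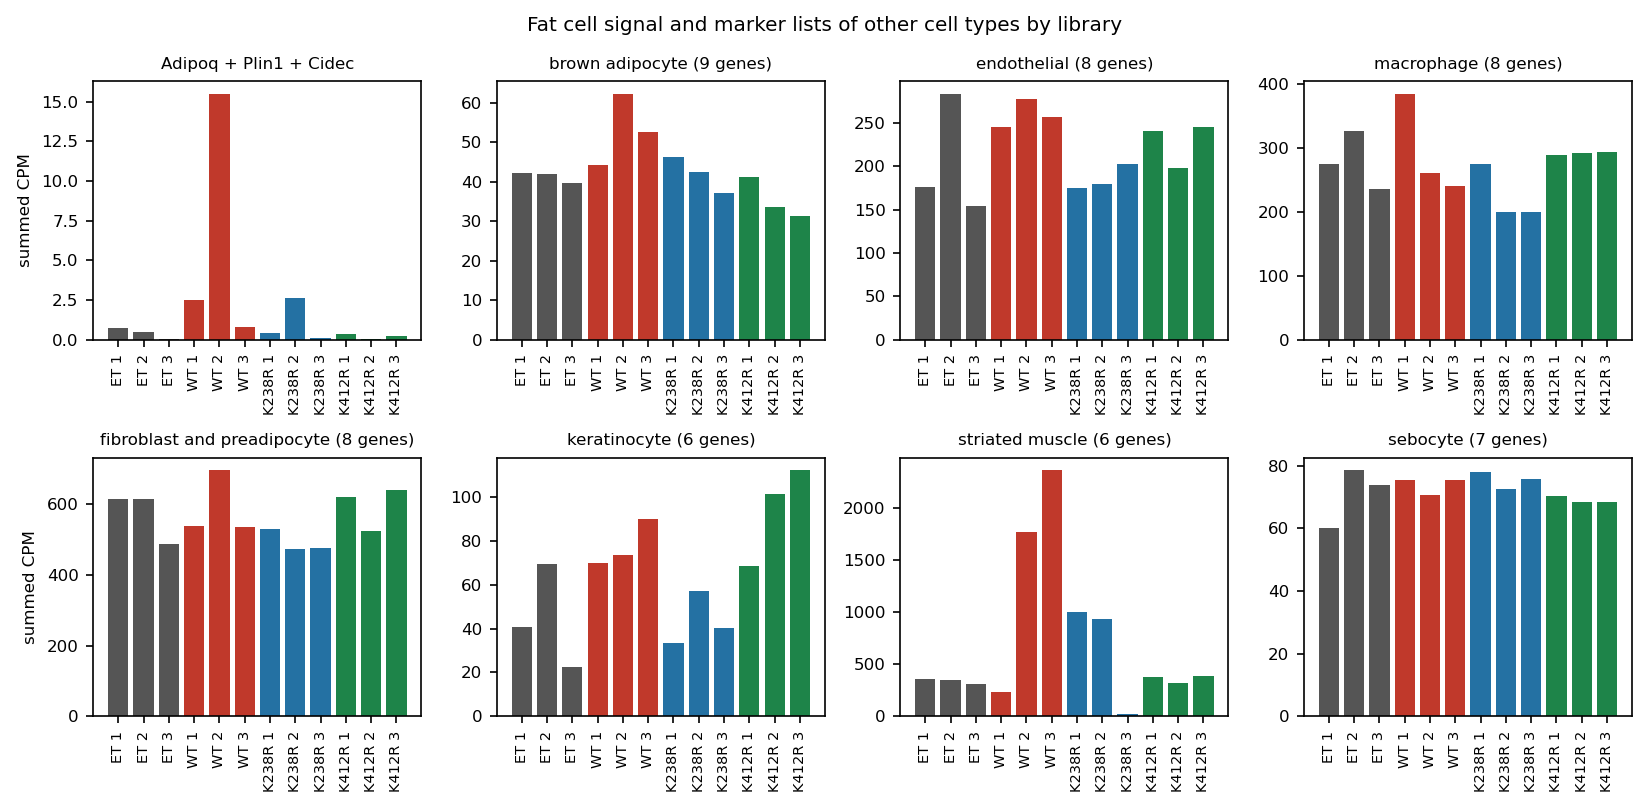
Summed CPM of Adipoq, Plin1 and Cidec and of 7 marker lists (panels, linear axes from 0 that differ between panels) in each of the 12 libraries, coloured by group. The fat cell sum is 15.5 CPM in WT replicate 2 and at most 2.61 elsewhere, whereas striated muscle is highest in WT replicate 3 and macrophage genes in WT replicate 1.

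The genes most like the fat cell signal were found by Pearson's r over the 12 libraries between log2 CPM and the log2 of the summed CPM of Adipoq, Plin1 and Cidec. The libraries share groups and depth, and r is a description with no test. The summed counts were 1 in ET replicate 3 and in K412R replicate 2 and 2 in K238R replicate 3, so counting error there is large. The 15 highest were Carns1 (0.919), Atp1b4 (0.907), Myl4 (0.893), Myh8 (0.887), Gja3 (0.887), Chrng (0.886), Cav3 (0.884), Gm31047 (0.884), Gm35535 (0.879), Myf5 (0.873), 5430431A17Rik (0.871), Kazald1 (0.868), Synpo2l (0.861), Myom3 (0.861) and Chrnd (0.858). Many of them are known from developing muscle, among them the myosin genes Myl4 and Myh8, the acetylcholine receptor subunits Chrng and Chrnd and the transcription factor Myf5. All 15 had their highest value in WT replicate 2, and without that library their r lay between 0.760 for Chrnd and 0.861 for Atp1b4. They were picked by r over all 12 libraries, so the r without WT replicate 2 is no separate support. Of the other fat cell genes, Cfd had an r of 0.861, Fabp4 of 0.821, Lipe of 0.511 and Pparg of 0.416, and without WT replicate 2 these were 0.767, 0.714, 0.104 and 0.0588.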

How the data were processed

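RNA of 12 teratomas, 3 in each of 4 groups given by the sample titles, was sequenced from poly(A)-selected CORALL libraries. The submitters' processing notes name fastp, STAR, Salmon and GATK and build GRCm39 (versions not given in the sources used here). The authors deposited 1 estimated count per gene and library, whole and not normalized. Counts of 38986 genes were taken as deposited and rounded, which changed none.

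CPM are counts per 1000000 counts of the library. The 18405 genes kept by filterByExpr (minimum count 10) were scaled by TMM and tested with edgeR 4.0.16 (glmQLFit, glmQLFTest, 1 mean per group, 12 libraries), with Benjamini-Hochberg adjustment over all of them and a threshold of 0.05. A standard error is the log2 fold change divided by the square root of F. DESeq2 1.42.0, other scalings, no filter, 2 groups alone, a replicate block, omission of Gm26917 (7.47% to 13.9% of counts) and of each library were alternatives. After the data were seen, 2 more were tried with their results in view: the robust option of glmQLFit, and library totals summed again after the filter, which the first fit used before full totals replaced them. Scripts were tested on simulated data. The members and lists were chosen with earlier results of these data known. Named beside the 10 genes were the 15 most alike, list genes past the threshold and up to 4 of the highest mean CPM in a list. Pck1, Plin4, Gpd1, Aqp7, Cebpa, most brown fat genes and the genes named from the sebocyte and striated muscle lists were named after their values were seen. R 4.3.3 and Python 3.11.15 were used.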

Additional observations from a re-analysis of the deposited data

How the results depend on the processing

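The count of fat cell genes past the adjusted threshold, 0 in all 6 comparisons and in the test of any difference, moved under these settings only. In WT against ET it was 2 with the replicate number as a block (Cidec, adjusted p = 0.0407, and Cfd, 0.0473, with 917 genes called in all) and 0 to 2 with a library left out. In K412R against WT it was 2 with the block (Cidec, 0.0140, and Cfd, 0.0276, with 1155 genes in all) and 2 with no filter (Cidec and Plin1). In the test of any difference it was 1 with no filter (Plin1, adjusted p = 0.0482), 1 with DESeq2 (Cidec, 0.0121), 1 with the block (Cidec, 0.037) and 0 to 1 with a library left out (Cidec without ET replicate 2, 0.0396). The replicate numbers are not shown to pair the libraries: of 18 correlations between same-numbered libraries of 2 groups (deviations from the group means over the 500 most variable genes), from -0.36 to 0.32, only 4 were above 0.1. Values are from edgeR's quasi-likelihood test except where DESeq2 is named, and DESeq2 gave Cidec no adjusted p in WT against ET or in the 3 comparisons of K412R. The robust option of glmQLFit and library totals summed again after the filter, both tried after the data were seen, left each of these counts at 0.

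The fitted log2 fold changes kept their direction under every alternative except the omission of single libraries. With 1 library left out, Lipe ran from -0.12 to 0.22 in WT against ET and from -0.15 to 0.19 in K412R against WT. In K238R against ET, Pparg ran from -0.24 to 0.57, Fabp4 from -0.76 to 0.39, Adipoq from -0.25 to 3.15 and Cfd from -3.40 to 2.29. In K412R against ET, Pparg ran from -0.55 to 0.059, Cidec from -1.45 to 2.69, Lipe from -0.031 to 0.17, Fabp4 from -0.0699 to 0.87, Adipoq from -1.65 to 0.89 and Cfd from -2.48 to 0.81. In K412R against K238R, Cfd ran from -2.82 to 2.24. The cause was not tested. Most of the 10 genes had under 10 counts in most libraries, so counting error alone is large for all except Fabp4, Lipe and Pparg.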
